A study of Mus musculus with 4 samples.

Results

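The molecules described here are 9 membrane proteins that hold germ cells to Sertoli cells in the seminiferous epithelium, and their RNA was measured in whole testes of Rfx2 mutant and control mice. They were chosen by name, with no cut on a measured value but with earlier results of these data known: the nectins Pvrl2 and Pvrl3, the nectin-like molecule Cadm1, the junctional adhesion molecules Jam2 and Jam3, N-cadherin (Cdh2), the integrin subunits Itga6 and Itgb1, and the connexin Gja1. All 9 were found among the 22311 genes of the series, and all 9 passed the filter on low values. The 2 mutant samples carried the genotype rfx2-/-, and the 2 control samples are labelled as wild type. All 4 samples were testes of male mice of 24 days, with the strain given as DBA. The study's methods differ from these labels, with heterozygous controls and mice of mixed C57BL/6 and 129/s6 origin. The mutation was present in every cell of the body, since a neomycin-resistance cassette took the place of the exons for the DNA-binding domain in the germ line, and the line came from a single embryonic stem cell clone. The RNA was isolated from all testicular cells together, so the FPKM of a gene sums over germ cells, Sertoli cells and interstitial cells. The study writes of 2 control mice for the 2 control samples, and of samples of mutant mice. Where 2 samples differ in such bulk RNA, fewer cells of a type and less RNA per cell cannot be told apart.

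Sertoli cells are the somatic cells that surround and nourish the developing germ cells. From the late round spermatid stage both cell types are joined at the apical ectoplasmic specialization, an adherens-type junction in which bundled actin lies under the Sertoli cell membrane. The study places the arrest of mutant spermatids at an early step of the round stage. Whether this junction had formed on the mutant cells was not measured here. Nectin-3 on the spermatid is known to bind nectin-2 on the Sertoli cell, and JAM-C on the spermatid to bind JAM-B on the Sertoli cell. Integrins with a β1 chain, N-cadherin and the gap junction protein of Gja1 serve at this contact or at the neighbouring junctions between Sertoli cells near the basal side. The study chose this age because it found spermiogenesis of the mutants normal until then, with massive detachment of round spermatids afterwards. It also reports differences by this age. Some younger mutants were delayed, with fewer round spermatids, germ cell apoptosis was already raised, and flagellum assembly was already blocked. The comparison therefore asks whether RNA of the adhesion molecules differed between genotypes before the massive detachment, but not before every effect of the mutation.

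The promoter sequences of the partners Pvrl2 and Pvrl3 are shown because these 2 genes had their sample-to-sample differences in opposite order, as given further on. The RefSeq promoter table (GRCm38.p6) held 4 of the 9 genes, which were Pvrl2, Pvrl3, Itgb1 and Gja1. The 250 bases before the start were placed in mm9, the build of the files, by an exact match at a single place. The Pvrl2 sequence lies on the minus strand at chr7:20334923-20335172 and the Pvrl3 sequence, whose RefSeq start lies inside the span annotated for the gene in mm9, on the minus strand at chr16:46497081-46497330. Capitals mark the GC box, GGGCGG on either strand.
Pvrl2: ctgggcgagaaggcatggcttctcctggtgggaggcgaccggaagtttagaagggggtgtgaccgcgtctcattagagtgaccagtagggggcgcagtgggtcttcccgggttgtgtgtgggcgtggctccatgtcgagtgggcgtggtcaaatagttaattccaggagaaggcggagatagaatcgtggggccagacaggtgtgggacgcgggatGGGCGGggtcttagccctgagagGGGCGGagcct
Pvrl3: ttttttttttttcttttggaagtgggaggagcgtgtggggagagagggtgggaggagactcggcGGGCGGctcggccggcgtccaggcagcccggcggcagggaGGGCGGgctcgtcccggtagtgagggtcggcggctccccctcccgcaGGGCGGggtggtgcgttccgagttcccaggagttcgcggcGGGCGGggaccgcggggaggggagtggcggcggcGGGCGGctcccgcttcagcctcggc
Pvrl2 held 2 GC boxes, starting 34 and 11 bases before the transcript start, and Pvrl3 held 5, the nearest 25 bases before it. Itgb1 held 1 GC box and Gja1 none, and 32.7% of the 32851 promoters of this length in the table held at least 1. GC content was 62.0% for Pvrl2, 73.2% for Pvrl3 and 68.0% for Itgb1, above the median of 52.4% over all promoters, while that of Gja1 was below it. The X-box, the motif that RFX proteins bind, was searched by its consensus on both strands and was present in none of the 4 windows, while 1.29% of all windows held it. The study scanned longer promoter regions with a weighted form of the motif. Absence from these short windows therefore does not tell whether RFX2 binds near these genes. The same 4 windows held no TATAAA (present in 12.4% of all promoters) and no CCAAT (33.9%), each on either strand.

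RNA levels are given as FPKM, fragments scaled to transcript length and to the number of mapped fragments, which allows genes of different lengths to be compared. The files held between 22553 and 22563 entries per sample, and between 12557 and 12942 genes reached an FPKM of 1. The targeted gene Rfx2 had an FPKM of 36.7 in mutant 1, 39.8 in mutant 2, 123.1 in control 1 and 89.4 in control 2 (log2 fold change of mutant over control −1.43 ± 0.19 SE, adjusted p = 0.00617 by limma with Benjamini-Hochberg adjustment). Without control 1 its adjusted p was 0.0628 by limma. The study found that the mutant Rfx2 transcript lacks the deleted exons and has a shifted reading frame, and that RFX2 protein was absent on Western blot. RNA of the remaining exons can thus keep the FPKM of the whole gene above 0. The labelled tissue was present in every sample, since 11 Sertoli markers summed to an FPKM between 599.5 and 887.1 and 9 spermatocyte markers to between 1156 and 1317, and no marker in any of the 9 cell type lists was at 0 in all samples. The summed FPKM of 8 elongating spermatid markers was 1220 in mutant 1, against 6281 in mutant 2, 7784 in control 1 and 5284 in control 2, so mutant 1 stood apart from the other samples before any adhesion gene was compared.

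All 9 adhesion molecules were expressed at this age, over a wide range. Pvrl3 had the highest mean FPKM over the 4 samples, 120.3, higher than that of 95.7% of the genes tested. Cdh2 followed with a mean FPKM of 29.6, then Pvrl2 with 21.6, Cadm1 with 20.8, Jam3 with 20.7, Itgb1 with 16.6, Gja1 with 15.6, Jam2 with 5.36 and Itga6 with 2.27. Between neighbours in this order, the ranges over the 4 samples were apart only from Pvrl3 to Cdh2, from Gja1 to Jam2 and from Jam2 to Itga6. Pvrl2, Cadm1 and Jam3 could not be ordered, since Pvrl2 was above Cadm1 and Cadm1 above Jam3 in 2 of the 4 samples each. The FPKM of the 9 genes summed to 256.4 in mutant 1, 241.3 in mutant 2, 251.1 in control 1 and 262.4 in control 2. Pvrl3 alone made up 43.3% of this sum in mutant 1, 50.7% in mutant 2, 55.2% in control 1 and 41.7% in control 2. Without Pvrl3 the sum was 145.5, 119.1, 112.4 and 152.9 in the same order of samples, with the control samples the lowest and the highest of the 4.

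**Figure D1:**
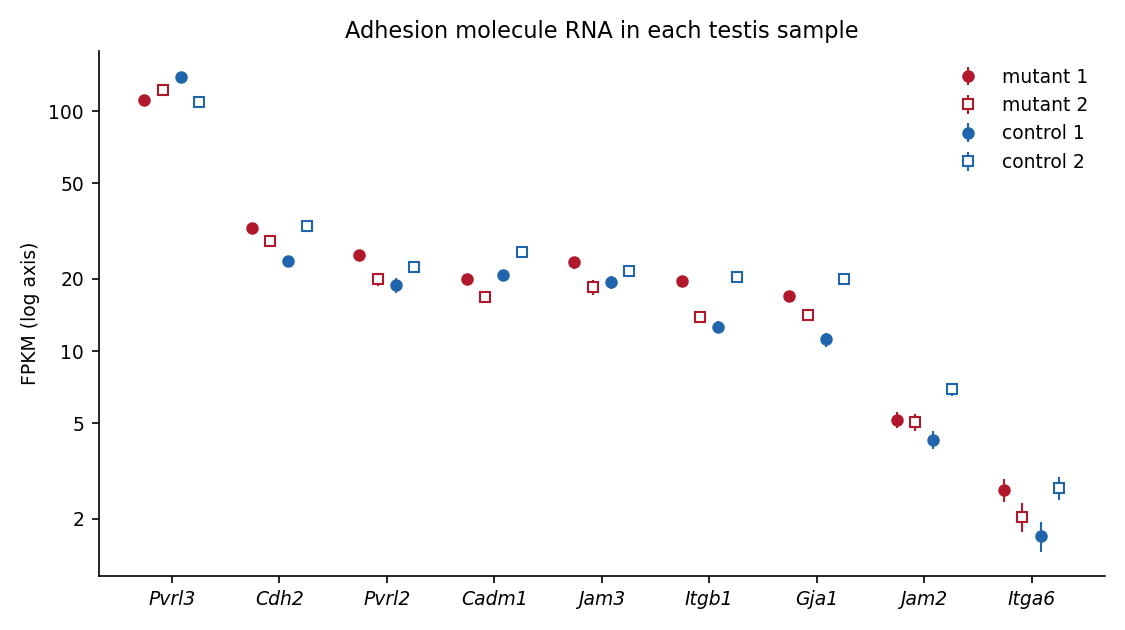
RNA level of the 9 adhesion molecules as FPKM on a log axis, with a point for each of the 2 mutant and 2 control samples. Pvrl3 lies between 109.5 and 138.7, and Itga6 between 1.70 and 2.69.

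None of the 9 adhesion molecules differed between mutant and control testes in limma with Benjamini-Hochberg adjustment over 12985 genes. Over all genes tested, 2.52% were called lower in the mutant samples and 0.308% higher, 2.83% together. These shares were unstable. The 327 genes called lower and 40 called higher became 199 and 17 without a filter on low values. With samples scaled to equal Sertoli marker sums they became 164 and 10. The counts also changed when 1 library was left out, which leaves 1 sample in a genotype. The lowest unadjusted p among the 9 was 0.132 and the lowest adjusted p was 0.931, both for Cadm1. The other 8 each had an adjusted p of 0.9999 by limma. Among the 9, 0 had an unadjusted p under 0.05 in limma, beside 1128 of the 12985 genes tested. With only 9 molecules, this count of 0 does not set them apart from all genes. The log2 fold change was above 0 for 6 molecules and below 0 for 3, with a median of 0.036, beside a median of 0.032 over all genes tested. The signs depended on the scaling: with samples scaled to equal Sertoli marker sums all 9 were below 0, with a median of −0.18 beside −0.16 over all genes tested. The 95% intervals, not adjusted for the number of genes, give the differences that 2 samples per genotype could not exclude. Across the 9 molecules they reached from −0.77 to 0.67 on the log2 scale, or from 0.588-fold to 1.60-fold. An interval that leaves out 0 is not enough for a call, since calls used p-values adjusted over 12985 genes. Log2 fold changes here are of FPKM plus a pseudocount of 1, which makes those of low genes smaller.

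The nectins are partners across this junction. Pvrl2, which encodes nectin-2 of the Sertoli cell (chromosome 7, 20301993 to 20334922, minus strand), had an FPKM of 25.1 in mutant 1, 19.9 in mutant 2, 18.9 in control 1 and 22.4 in control 2. The mutant values lay on both sides of the higher control value. Its log2 fold change was 0.12 ± 0.19 SE (95% interval −0.33 to 0.56). Pvrl3, which encodes nectin-3 of the spermatid (chromosome 16, 46387819 to 46498638, minus strand), had an FPKM of 110.9 in mutant 1, 122.2 in mutant 2, 138.7 in control 1 and 109.5 in control 2. Both mutant values fell between the control values. The mean FPKM was 117 ± 7.99 (SD, n = 2) in mutant and 124 ± 20.6 (SD, n = 2) in control testes, and the log2 fold change was −0.08 ± 0.18 SE (95% interval −0.51 to 0.34).

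Cadm1 encodes an adhesion molecule of the nectin-like family that germ cells carry and through which they are known to bind Sertoli cells (chromosome 9, 47338256 to 47665720, plus strand). Its FPKM was 19.98 in mutant 1, 16.8 in mutant 2, 20.7 in control 1 and 25.9 in control 2. It was the single molecule of the 9 whose groups did not overlap, although mutant 1 and control 1 were nearly equal. Of all genes tested, 15.2% likewise had both mutant values below both control values, and 31.5% had groups that did not overlap in either direction. The mean FPKM was 18.4 ± 2.26 (SD, n = 2) in mutant and 23.3 ± 3.72 (SD, n = 2) in control testes. The ratio of mutant to control was 0.789 in FPKM, and the log2 fold change was −0.32 ± 0.19 SE (95% interval −0.77 to 0.12, adjusted p = 0.931 by limma with Benjamini-Hochberg adjustment).

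The junctional adhesion molecules form a second pair of partners. Jam2, which encodes JAM-B (chromosome 16, 84774368 to 84826173, plus strand), had an FPKM of 5.18 in mutant 1, 5.05 in mutant 2, 4.27 in control 1 and 6.93 in control 2. The control samples thus differed 1.63-fold from each other, with nearly equal values in the mutant samples. Its log2 fold change was −0.08 ± 0.25 SE (95% interval −0.67 to 0.51). Jam3, which encodes JAM-C, a protein that spermatids need for their polarity (chromosome 9, 26904969 to 26963003, minus strand), had an FPKM of 23.4 in mutant 1, 18.5 in mutant 2, 19.4 in control 1 and 21.6 in control 2. Here the mutant values lay outside the control values on both sides. The log2 fold change of Jam3 was 0.02 ± 0.19 SE (95% interval −0.41 to 0.46).

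Cdh2 encodes N-cadherin, the classical cadherin of Sertoli and germ cells (chromosome 18, 16747386 to 16967755, minus strand). Its FPKM was 32.5 in mutant 1, 28.9 in mutant 2, 23.7 in control 1 and 33.2 in control 2. Both mutant values fell between the control values, and the log2 fold change was 0.12 ± 0.20 SE (95% interval −0.34 to 0.59). Gja1 encodes the main connexin of the gap junctions between Sertoli cells and between Sertoli and germ cells (chromosome 10, 56097106 to 56110225, plus strand). Its FPKM was 16.99 in mutant 1, 14.2 in mutant 2, 11.2 in control 1 and 19.9 in control 2. The control samples differed 1.78-fold, the widest gap between samples of a genotype among the 9 molecules, and the mean FPKM was 15.6 ± 1.998 (SD, n = 2) in mutant and 15.5 ± 6.16 (SD, n = 2) in control testes. The log2 fold change of Gja1 was 0.05 ± 0.27 SE (95% interval −0.57 to 0.67).

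The integrin subunits pair as an α and a β chain of a laminin receptor. Itgb1, the β chain shared by most integrins of the testis (chromosome 8, 131209554 to 131257100, plus strand), had an FPKM of 19.7 in mutant 1, 13.8 in mutant 2, 12.6 in control 1 and 20.3 in control 2. The spread within each genotype was 1.42-fold in the mutant and 1.61-fold in the control samples, and the log2 fold change was 0.04 ± 0.27 SE (95% interval −0.58 to 0.65). Itga6, the α chain (chromosome 2, 71583673 to 71696473, plus strand), was the lowest of the 9, with an FPKM of 2.65 in mutant 1, 2.04 in mutant 2, 1.70 in control 1 and 2.69 in control 2. Both mutant values again fell between the control values, and the log2 fold change was 0.08 ± 0.24 SE (95% interval −0.48 to 0.63).

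For most molecules the differences between samples of the same genotype went beyond the deposited bounds. The bounds that the authors deposited beside each FPKM did not overlap between mutant 1 and mutant 2 for 8 of the 9 molecules, all except Jam2, nor between control 1 and control 2 for 8, all except Jam3. For Gja1 the bounds were 10.4 to 11.9 in control 1 and 18.9 to 20.8 in control 2. Between genotypes, mutant 1 and control 1 were apart for 8 molecules and mutant 1 and control 2 for only 4, which were Pvrl2, Cadm1, Jam2 and Gja1. If they held counting error alone, these bounds would correspond to between 196 fragments for Itga6 in control 1 and 7661 for Pvrl3 in mutant 1. That assumption was not tested. For Pvrl3 the derived number was 7661 at an FPKM of 110.9 in mutant 1, but 4314 at the higher FPKM of 122.2 in mutant 2. For Cdh2 it was 4348 at an FPKM of 32.5 in mutant 1 and 3297 at the lower FPKM of 28.86 in mutant 2. The derived numbers are therefore not read as fragment counts. The bounds also do not measure the spread between samples of a genotype.

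A shared order of the samples ran through the set. In 7 of the 9 molecules both mutant 1 and control 2 were above both mutant 2 and control 1, which was the case for 37.6% of all genes tested. The 7 were Pvrl2, Jam2, Jam3, Cdh2, Itga6, Itgb1 and Gja1. Pvrl3 had the opposite order, with control 1 the highest, then mutant 2, mutant 1 and control 2, an order held by 11.6% of all genes tested when both mutant 1 and control 2 are below the other samples. Cadm1 had neither order. As deviations from the mean log2 level, Gja1 stood at 0.16 in mutant 1, −0.10 in mutant 2, −0.44 in control 1 and 0.39 in control 2, whereas Pvrl3 stood at −0.11, 0.03, 0.21 and −0.13.

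Most markers of the Sertoli cell and most of the round spermatid were likewise in opposite orders across the 4 samples. The summed FPKM of the 11 Sertoli markers was 887.1 in mutant 1, 774.3 in mutant 2, 599.5 in control 1 and 835.8 in control 2, and 10 of the 11 had both mutant 1 and control 2 above the other samples. The 9 round spermatid markers summed to 612.6, 998.0, 952.4 and 802.9 in the same samples, and 7 of the 9 had both mutant 1 and control 2 below the others. Of the 8 elongating spermatid markers, 6 did so too. The 6 macrophage markers (20.4 to 37.4 summed FPKM) and the 7 spermatogonial markers (72.9 to 108.4) had 5 members each in the Sertoli order, and none of the 7 Leydig markers (138.8 to 453.9 summed FPKM) had either order. The peritubular myoid markers summed to between 77.0 and 108.5 and the endothelial markers to between 3.05 and 4.68. Of the 60 markers tested, none was called between genotypes by limma with Benjamini-Hochberg adjustment. Other fits called some. Without mutant 2, which leaves mutant 1 alone against the controls, 11 spermatid markers were lower and 2 Leydig markers, Hsd3b6 and Insl3, were higher. A replicate block gave 4 lower (Prm1, Prm2, Tnp1 and Spaca7, all of spermatids) and 1 higher (Insl3), and equal Sertoli marker sums with the crossed replicate block gave 5 lower, the same 4 and Tnp2. The molecules did not all share the order of the cell they are named for. Jam3, whose protein lies on the spermatid, had the order of most Sertoli markers, and Cadm1, carried by germ cells, had neither order. Pvrl3 was lowest in control 2, whereas the round spermatid marker sum was lowest in mutant 1. The part of the cell type markers in the levels of the adhesion molecules was not tested.

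**Figure D2:**
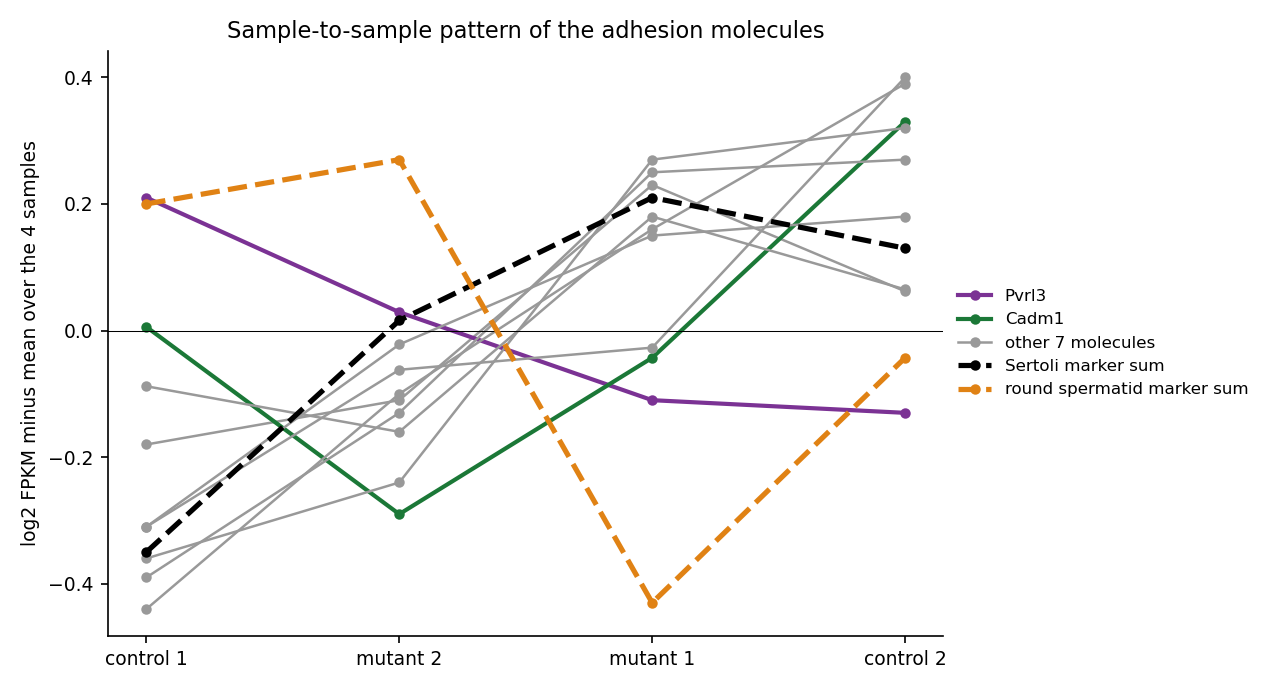
Deviation of each sample from the mean log2 level, in log2 units, for the adhesion molecules and for the summed Sertoli and round spermatid markers, with control 1, mutant 2, mutant 1 and control 2 from left to right. Gja1, the lowest grey line at control 1, and the Sertoli marker sum lie at their lowest there, at −0.44 and −0.35, while Pvrl3 is highest in that sample, at 0.21.

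Ratios of 2 genes within a sample do not depend on the scaling between samples. The FPKM of Pvrl3 over that of Pvrl2 was 4.41 in mutant 1, 6.14 in mutant 2, 7.35 in control 1 and 4.89 in control 2, and the groups overlapped (difference of log2 ratios, mutant minus control, −0.20). Jam3 over Jam2 was 4.52, 3.65, 4.55 and 3.11, again with overlap (difference 0.11). Itga6 over Itgb1 was nearly constant, at 0.135, 0.148, 0.134 and 0.133, with both mutant values above both control values by a narrow margin (difference 0.08). Cadm1 and Pvrl2 are not partners named above, so their ratio does not describe a binding pair. Cadm1 over Pvrl2 was 0.795 in mutant 1, 0.843 in mutant 2, 1.10 in control 1 and 1.16 in control 2, without overlap (difference −0.46). Of the 4 ratios compared, this was the one with the widest gap between genotypes relative to the gap within them. An exact two-sided permutation test of 2 against 2 samples cannot go below p = 0.333, which both ratios without overlap reached (Benjamini-Hochberg adjusted p = 0.667 over the 4 ratios), and it gave p = 0.667 for Pvrl3 over Pvrl2 and p = 1.0 for Jam3 over Jam2.

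The other genes of these junctions were taken from 9 lists that also hold the 9 molecules, 143 genes in all, of which 142 were in the files and 99 passed the filter. In limma with Benjamini-Hochberg adjustment 2 of the 99 were lower in the mutant samples and none was higher, which is 2.02% against 2.83% of all genes tested. The 2 were Itga1, from the list of integrin subunits, and Tln2, from the integrin and actin side of the ectoplasmic specialization. The list of integrin subunits was not limited to this junction, and the cells that held either RNA were not identified. Itga1, the α chain of a collagen receptor, had an FPKM of 0.437 and 0.707 in the mutant samples, against 5.08 and 4.58 in the control samples, and its log2 fold change was −1.90 ± 0.21 SE (adjusted p = 0.00222 by limma). Tln2 encodes a talin, a protein that links the cytoplasmic tail of β integrins to actin. Its FPKM was 1.69 and 1.74 in the mutant samples, against 11.9 and 11.2 in the control samples, with a log2 fold change of −2.21 ± 0.21 SE (adjusted p = 0.000939 by limma). For both genes the control samples were several times above the mutant samples, and the groups did not overlap.

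No other gene of the 9 lists was called in this fit, while equal Sertoli marker sums with the crossed replicate block called 7 of the 99, all lower, Fscn1, Limk2, Cldn3 and Lamb3 among them. Values are given next for mutant 1 and mutant 2 against control 1 and control 2. Of the integrin and actin-side genes of the ectoplasmic specialization, all 30 passed the filter, 1 (Tln2) was lower and 3 had an unadjusted p under 0.05. Fscn1, which encodes the actin-bundling protein fascin, had an FPKM of 2.17 and 1.39 in mutant against 4.03 and 3.68 in control samples (log2 fold change −0.82, adjusted p = 0.167 by limma). Limk2, a kinase that phosphorylates cofilin, had an FPKM of 4.595 and 4.73 against 7.32 and 7.15 (log2 fold change −0.54, adjusted p = 0.416 by limma). In both genes the groups did not overlap, but the differences did not pass the adjusted threshold. Among 25 junction adaptors tested, Mpdz had an FPKM of 0.945 and 0.777 against 1.11 and 1.85.

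Among the membrane proteins themselves, 6 of 9 nectins and nectin-like molecules were tested, and beside the 3 described above the lowest p belonged to Cadm4 (FPKM 2.12 and 1.29 in mutant, 0.943 and 1.21 in control samples) and Pvrl1 (0.752 and 0.649, against 1.02 and 1.02). Of the junctional adhesion molecules and their relatives 5 of 6 were tested, and beside Jam2 and Jam3, F11r, which encodes JAM-A, had an FPKM of 14.8 and 11.2 against 8.83 and 13.6, and Cxadr, a virus receptor that is also an adhesion molecule, 1.04 and 0.818 against 0.786 and 1.49. Of 9 cadherins 5 were tested, and Cdh11 had the lowest p, at an FPKM of 0.778 and 0.892 against 1.40 and 1.62 (adjusted p = 0.539 by limma), followed by Cdh13 with 1.19 and 1.29 against 2.35 and 1.30.

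Among the 8 laminin chains tested, the ligands of integrins, Lamb3 had an FPKM of 0.457 and 1.10 against 1.75 and 1.46 (adjusted p = 0.501 by limma) and Lama2 3.35 and 3.05 against 3.58 and 5.37. Among 6 tight junction proteins tested, the lowest p belonged to 2 claudins, Cldn11, the main claudin of the Sertoli cell barrier, with 74.8 and 64.2 against 49.7 and 73.0, and Cldn3, with 1.25 and 0.769 against 2.23 and 1.61 (adjusted p = 0.522 by limma). Of 23 connexins and pannexins only 6 passed the filter, among them Panx1 (1.58 and 0.976 against 1.11 and 1.91). Within the integrins, 8 of 18 subunits were tested, and after Itga1 the lowest p belonged to Itga7, with an FPKM of 1.35 and 1.58 against 2.09 and 1.54, and to Itgb3, with 1.27 and 0.307 against 1.03 and 0.605. The median log2 fold change of the lists ran from −0.061 for the cadherins to 0.14 for the tight junction proteins, beside 0.032 over all genes tested.

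**Figure D3:**
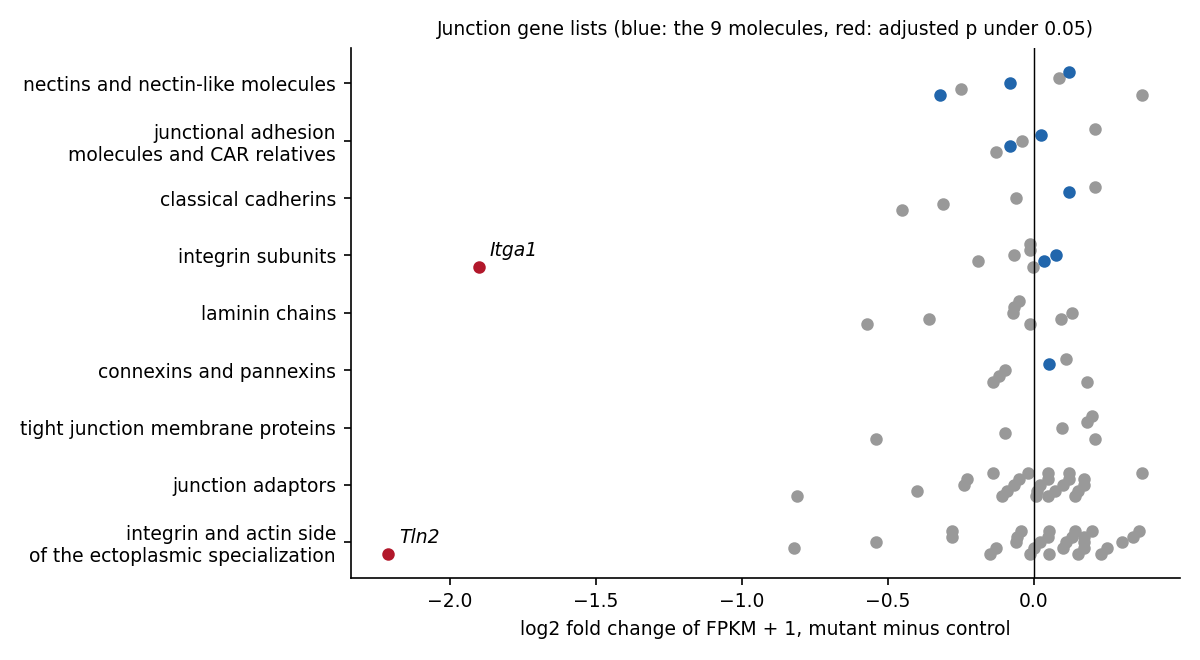
Log2 fold change of mutant over control, on the log2(FPKM + 1) scale, for the 99 genes tested of the 9 junction lists, with a point for each gene and the called genes marked. Tln2 at −2.21 and Itga1 at −1.90 lie apart from the other points, and the 9 adhesion molecules lie between −0.32 and 0.12.

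The genes whose levels over the 4 samples were nearest to those of Pvrl3, by Euclidean distance of log2(FPKM + 1), were Ehd1 (distance 0.0624), Efcab6 (0.0817) and Tcp10c (0.122). Ehd1, which encodes a protein of endosomal membrane traffic, had an FPKM of 110.3 in mutant 1, 127.1 in mutant 2, 139.4 in control 1 and 107.6 in control 2, the same order as Pvrl3. The nearest to Cadm1 were Sec23a (0.202), Pan3 (0.213) and Wbp5 (0.226). Sec23a, which encodes a coat protein of vesicles leaving the endoplasmic reticulum, had an FPKM of 19.4 in mutant 1, 17.4 in mutant 2, 18.4 in control 1 and 24.0 in control 2. Its groups overlapped, unlike those of Cadm1.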

How the data were processed

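RNA of 2 mutant and 2 control testes was sequenced on an Illumina instrument. The authors deposited FPKM for each gene and sample, with lower and upper bounds, made from reads aligned to mm9 with TopHat2 2.0.6 and normalized for transcript length and mapped fragments. The files show no scaling between samples, and the strandedness of the libraries is not given in the sources used here. Entries with a common gene symbol were added together. The 12985 genes that reached an FPKM of 1 in 2 or more samples were tested on log2(FPKM + 1) with limma 3.58.1 in R 4.3.3 (trended eBayes, two-sided, Benjamini-Hochberg, threshold 0.05). The functions were tested on simulated data. Ratios of 2 genes within a sample were compared by exact permutation tests. The labels do not say whether the samples of a genotype came from separate animals, and the study calls them independent; p-values measure the spread between these samples. Fragment numbers were derived from the deposited bounds, taken as 2 SD of a Poisson count around the FPKM.

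The members and gene lists were chosen with earlier results of these data known. Named from each list were every called gene and the 2 non-members with the lowest unadjusted p, and, for the member with the highest mean and the member with the largest fold change, the 3 nearest genes; some of these are not reported here. Alternatives were pseudocounts of 0.1 and 0.01, no filter, a filter at an FPKM of 5, quantile normalization, median-ratio scaling, eBayes with no trend, a replicate block, the highest entry per symbol, and each replicate left out. Chosen after seeing the data were a crossed replicate block, scaling to equal Sertoli marker sums, and both together. Gene positions and promoter placement used the NCBIM37 (mm9) reference. Rhox5 and Clmp, of the marker and junction lists, were not found in the files. Other steps used pandas 2.3.3, scipy 1.17.1 and numpy 2.4.6 under python 3.11.15.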

Additional observations from a re-analysis of the deposited data

How the results depend on the processing

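None of the 9 adhesion molecules was called by limma with Benjamini-Hochberg adjustment under any alternative that gave a test, and 0 had an unadjusted p under 0.05 except Cadm1 with equal Sertoli marker sums and the crossed replicate block together (adjusted p = 0.315 by limma). Over all genes, 327 were lower and 40 higher. These numbers became 199 and 17 without a filter, 202 and 17 with a filter at an FPKM of 5, 164 and 10 with equal Sertoli marker sums, 1080 and 94 with these sums and the crossed replicate block, and between 167 and 948 lower and 13 and 162 higher when a replicate was left out. With median-ratio scaling 17 genes were higher. Same-numbered samples had a correlation of deviations of −0.154 across 12985 genes, so they did not tend to deviate in the same direction. A single correlation cannot tell whether same-numbered samples were prepared together. A replicate block gave 525 lower and 70 higher genes, and the crossed replicate block 266 and 28. Rfx2 lost its call without a filter (−1.43, adjusted p = 0.0607 by limma), with median-ratio scaling (−1.46, adjusted p = 0.0669) and with equal Sertoli marker sums (−1.66, adjusted p = 0.195), and its log2 fold change ranged from −1.66 to −1.20 with a replicate left out, losing its call without control 1 (adjusted p = 0.0628). The signs of the small member fold changes were unstable. With median-ratio scaling Jam3 became −0.0063. With equal Sertoli marker sums, alone or with the crossed block, the log2 fold change was −0.10 for Pvrl2, −0.20 for Jam3, −0.097 for Cdh2, −0.075 for Itga6, −0.18 for Itgb1 and −0.16 for Gja1, and that of Cadm1 was −0.54. With a replicate left out, values ranged from −0.044 to 0.28 for Pvrl2, −0.25 to 0.087 for Pvrl3, −0.38 to 0.22 for Jam2, −0.14 to 0.19 for Jam3, −0.11 to 0.36 for Cdh2, −0.15 to 0.30 for Itga6, −0.29 to 0.36 for Itgb1, −0.34 to 0.44 for Gja1 and −0.48 to −0.17 for Cadm1, and the log2 ratio difference from −0.50 to 0.089 for Pvrl3 over Pvrl2 and −0.16 to 0.39 for Jam3 over Jam2. In all, 117 member values kept their sign and side of the threshold and 26 changed sign, but this tally does not measure robustness. Both changes of the filter, eBayes with no trend, the replicate block, the crossed block and the highest entry left every tested member's log2 fold change as it was. Equal Sertoli marker sums gave the same fold changes with and without the crossed block, so their changes of sign were counted in both. Itga1 and Tln2 were called under every alternative that tested them, and Itga1 was not tested with the filter at an FPKM of 5. Without a filter Itga2, named after its values were seen, was also called lower. With 2 samples per genotype, differences inside the 95% intervals were not detectable.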
